A study of Mus musculus with 10 samples.

Results

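The Hox genes of clusters A to D were examined in treated mouse back skin. Members were the rows whose gene symbol is Hoxa, Hoxb, Hoxc or Hoxd followed by a number alone, without *Hoxc13*, which the choice left out and which is a hair follicle gene. This gave 38 members of 24452 rows with a gene symbol, and the rule itself reads gene symbols alone. On GRCm38.p6, the 11 members of cluster A lie on chromosome 6, the 10 of cluster B on chromosome 11 from 96194316 to 96368254, the 8 of cluster C on chromosome 15 from 102936826 to 103036856 and the 9 of cluster D on chromosome 2 from 74668225 to 74765142. The question was whether the libraries differed in the body position or the dermal share of the tissue, as read by cluster and by paralog number.

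The study compared WT mice with *Zfp36*ΔARE knockin mice (KI), both C57BL/6, young adult at the first application and treated alike with DMBA and TPA. KI mice lack an AU-rich instability motif in the *Zfp36* mRNA, deleted at the endogenous locus, and so carry more TTP, an mRNA decay protein, in every cell type that uses the gene. All mice received 400 nmol of the mutagen DMBA once on the shaved back and then 10 nmol of the phorbol ester TPA 2 times a week for 20 weeks. Treated skin without tumor was taken at full thickness, and 1 library was made per mouse, 5 WT and 5 KI. No group was left untreated, so every value below comes from carcinogen-treated skin. The number of founder clones behind the KI line, and how far along the trunk each piece was cut, are not given in the sources used here.

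Hox genes encode homeodomain transcription factors that give cells their address along the body axis. Within each cluster the genes lie in a row, and low paralog numbers are used toward the head while high numbers are used toward the tail. Adult dermal fibroblasts keep the Hox pattern of the site they come from, and keratinocytes and hair follicles use part of the family as well. In bulk skin, fewer cells of a type and less RNA per cell cannot be told apart.

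The libraries held 19595035 to 36419573 counts each, with overlap between the groups. *Zfp36* had 1824 to 2496 normalized counts in WT and 4196 to 6134 in KI, a 2.52-fold difference (adjusted p = 0.00195, edgeR's quasi-likelihood test). A normalized count is the count scaled by edgeR's TMM method to the mean effective library size. Hair shaft keratins set WT replicates 1 and 3 apart, with a score (mean log2(CPM + 1) of 10 genes) of 5.21 and 2.44 against 7.71 or more in the other libraries. Y-linked genes had 3349 to 4262 counts in KI replicates 2 to 5 and at most 1 count in KI replicate 1 and all WT libraries. *Xist*, the X-inactivation transcript, had 14829 to 26103 counts in WT, 28087 in KI replicate 1 and 4 to 15 in KI replicates 2 to 5. By these genes KI replicates 2 to 5 read as male and all others as female, so sex differs between the groups. Results that rest on the libraries set apart in these ways are given with and without them.

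Hox transcripts were a small part of the skin transcriptome. They summed to 4354 to 6625 counts in WT libraries and 4389 to 8954 in KI libraries, or 0.0187% to 0.0297% of each library. Of the 38 members, 27 passed edgeR's filter on low counts and were tested. The other 11 were *Hoxa11*, *Hoxa13*, *Hoxb1*, *Hoxb13*, *Hoxc10*, *Hoxc11*, *Hoxc12*, *Hoxd1*, *Hoxd11*, *Hoxd12* and *Hoxd13*. All members of paralog numbers 4 to 8 were tested (15 of 15), against 6 of 8 for paralogs 1 to 3 and 6 of 15 for paralogs 9 to 13.

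Per transcript length, the highest levels belonged to the middle of the clusters. *Hoxb6* averaged 11.2 RPKM (counts scaled to gene length and library size) over the 10 libraries, *Hoxb7* 10.0, *Hoxc6* 9.54, *Hoxc8* 8.85 and *Hoxd8* 8.46. The ranges of neighbours in this order overlapped: *Hoxb6* alone ranged from 6.09 to 16.5 RPKM and *Hoxd8* from 4.80 to 11.5. Summed over a cluster, WT skin had 40.0 ± 7.43 RPKM from cluster B, 26.9 ± 2.70 from cluster C, 14.9 ± 2.32 from cluster A and 14.7 ± 4.76 from cluster D (SD, n = 5). Levels were low past paralog 9, and in cluster C already at *Hoxc9* (0.585 RPKM). *Hoxa10* averaged 0.285 RPKM and *Hoxd10* 0.441, while *Hoxa11*, *Hoxb13*, *Hoxd12* and *Hoxd13* had 0 counts in every library, where the limit that a count of 0 allows is 3 counts. *Hoxa13*, the distal limb and genital tubercle gene, had 1 count in 1 WT library. Of the remaining untested members *Hoxc10* had 0 to 54 counts per library, *Hoxc12* 2 to 19, *Hoxd11* 0 to 9, *Hoxc11* 0 to 4 and *Hoxd1* 0 to 2.

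**Figure D1:**
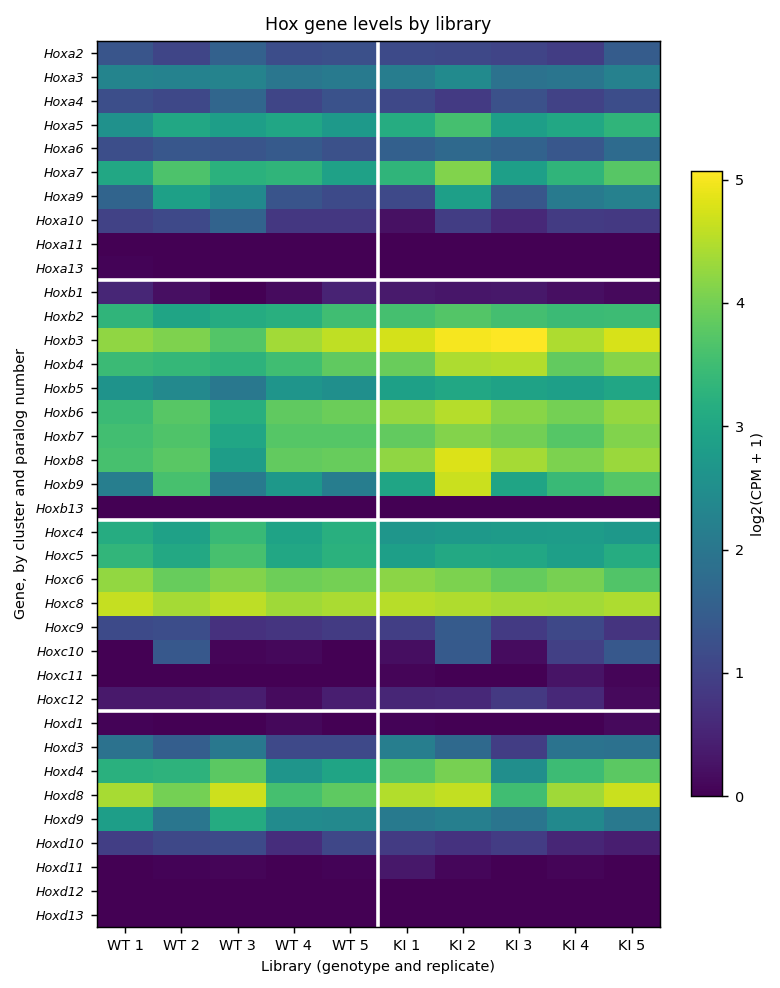
Level of Hox genes in each library as log2(CPM + 1), with genes in rows by cluster (A at the top to D at the bottom) and paralog number, and the 5 WT and 5 KI libraries in columns. The brightest rows include *Hoxb3*, *Hoxc8* and *Hoxd8*, while rows past paralog 10 are dark in both genotypes.

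Genotype was associated with higher levels of cluster B. Of its 8 tested members 7, *Hoxb2* to *Hoxb8*, rose in KI skin, and the direction of all 8 held under every scaling tried. Outside cluster B, *Hoxa6* rose and *Hoxc4* fell, and no member of cluster D passed. In all, 8 of 27 tested members were higher at an adjusted p under 0.05, where 15.3% of all 15543 tested genes were, and 1 was lower, where 19.1% of all genes were. None of the 27 passed with a fold over 2 in either direction, against 1.67% of all genes higher and 6.64% lower, while DESeq2 passed 1 with that fold, *Hoxb9*. The median log2 fold change was 0.24 over the 27 members (0.091 without KI replicate 2 and 0.37 without KI replicate 3) and 0.01 over all tested genes. Among the 27, 4 members (*Hoxb4*, *Hoxb5*, *Hoxb6* and *Hoxb8*) had every KI library above every WT library, as did 11.2% of all genes, and *Hoxc4* alone had every KI library below, as did 11.9% of all genes.

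*Hoxb4*, known for expanding blood stem cells when overexpressed, showed the smallest p of the family. Its normalized counts were 265, 252, 231, 277 and 352 in WT replicates 1 to 5 and 373, 551, 569, 356 and 447 in KI replicates 1 to 5. Every KI library lay above every WT library, though KI replicate 4 only just. The log2 fold change was 0.74 (SE 0.16, adjusted p = 0.00998).

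*Hoxb6* and *Hoxb8* moved in the same way. *Hoxb6* had 268, 332, 215, 353 and 379 normalized counts in WT and 489, 580.3, 456, 406 and 484 in KI libraries, and the groups did not overlap (log2 fold change 0.64, SE 0.16, adjusted p = 0.0139). *Hoxb8*, whose loss in mice causes excessive grooming and hair removal, had 294, 338, 162, 356 and 371 in WT and 471, 719.7, 535, 422 and 505 in KI. KI replicate 2 was highest and WT replicate 3 lowest, and the groups again did not overlap (log2 fold change 0.80, SE 0.22, adjusted p = 0.0201). *Hoxb5*, a gene of enteric neuron development, had 135, 112, 83.0, 139.8 and 128 in WT and 171, 192, 175, 167 and 187 in KI (log2 fold change 0.57, SE 0.14, adjusted p = 0.0152). Its KI libraries lay close together, with an SD of 10.8 normalized counts.

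For the other cluster B members the groups touched or overlapped. *Hoxb3*, which acts in the pharyngeal arches and in vessel growth, had 472, 429, 322, 521 and 614 normalized counts in WT and 690.1, 827, 869.7, 558 and 699 in KI, so only KI replicate 4 fell inside the WT range (log2 fold change 0.63, SE 0.17, adjusted p = 0.0201). *Hoxb2*, a gene of hindbrain segments, had 240.4, 181, 206, 219 and 279 in WT and 291, 321, 286, 267 and 272 in KI (log2 fold change 0.35, SE 0.12, adjusted p = 0.0424). *Hoxb7* had 282, 316, 185, 329 and 328 in WT and 361, 437, 399.7, 327 and 436 in KI (log2 fold change 0.44, SE 0.16, adjusted p = 0.0491). Both passed narrowly. With 1 library left out in turn, *Hoxb2* passed only without WT replicate 5 (adjusted p from 0.017 to 0.0999) and *Hoxb7* only without WT replicate 3, 4 or 5 or KI replicate 4 (0.0457 to 0.107), and *Hoxb3* did not pass without KI replicate 2 or 3 (at most 0.0519). In the full set, *Hoxb7* in KI replicate 4 lay below 2 WT libraries.

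*Hoxb9*, the most tailward of the tested cluster B genes and one that patterns the ribs, had the largest fold change and the widest spread. It had 93.0, 296, 85.4, 147 and 91.8 normalized counts in WT and 185, 652, 181, 263 and 327 in KI. Replicate 2 of each genotype was far above the rest of its group, and the difference did not pass (log2 fold change 1.16, SE 0.45, adjusted p = 0.0678), although DESeq2 called it higher (adjusted p = 0.0211) and it passed with edgeR without WT replicate 2 (adjusted p = 0.018). *Hoxb1* had 0 to 13 counts per library and was not tested.

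The gain of cluster B was seen in the KI library without Y-linked counts as well. KI replicate 1 lay above all 5 WT libraries in 7 of the 8 tested cluster B members, the exception being *Hoxb9*. Over all tested genes it did so in 30.5%. With a term for Y-linked counts beside genotype, the genotype difference is that of KI replicate 1 alone against the 5 WT libraries. Members passing in that fit are not counted, because 1 library cannot decide them. The cluster B median was 0.47 in that fit and 0.63 in the fit without the term, and genotype and Y-linked counts cannot be fully told apart. Without WT replicates 1 and 3, cluster B kept a median log2 fold change of 0.49 and 4 members passed, *Hoxb4*, *Hoxb5*, *Hoxb6* and *Hoxb8*, where 6.87% of all genes were higher. Without KI replicate 2, 3 members were higher (*Hoxb4*, *Hoxb5* and *Hoxb6*), where 8.41% of all genes were, and *Hoxb8* had an adjusted p of 0.0501, and without any other single library 4 to 7 were higher, where 8.08% to 15.1% of all genes were (4 without KI replicate 3, 5 without WT replicate 1 or KI replicate 1).

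**Figure D2:**
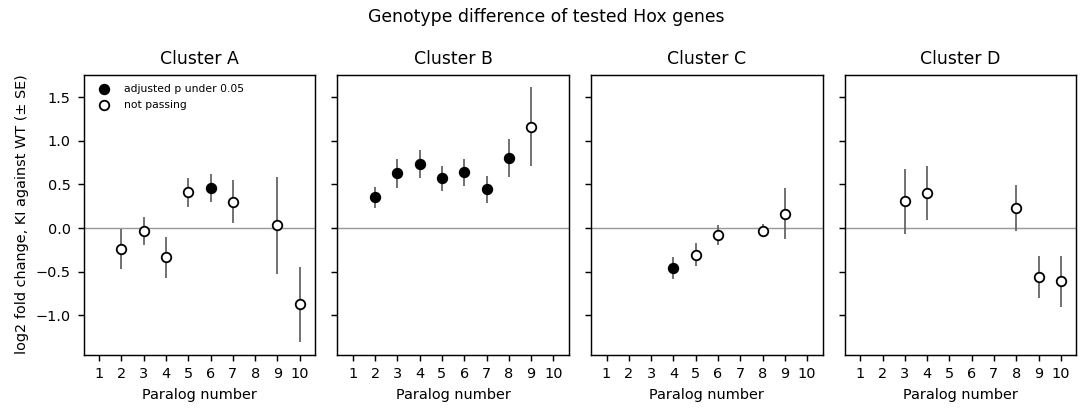
Log2 fold change of KI against WT (points, with bars of 1 SE from the edgeR fit) for tested members, by cluster in panels and paralog number on the x axis, filled where the adjusted p was under 0.05. Cluster B is above 0 at every paralog number, while clusters A, C and D straddle 0. The one filled point below 0, *Hoxc4*, turns positive when libraries are scaled to the dermal fibroblast genes, which moves the median of all genes to 0.78.

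Cluster C, the cluster next in abundance, did not rise with cluster B. *Hoxc4* had 208, 172, 264, 179 and 219 normalized counts in WT and 142, 148, 158, 160.2 and 148 in KI, so every KI library was lower. Its log2 fold change was -0.46 (SE 0.13, adjusted p = 0.0212), and it became 0.34 (adjusted p = 0.183) when libraries were scaled to the dermal fibroblast genes. That scaling moved the median of all genes to 0.78, so *Hoxc4* stayed below it. Without WT replicates 1 and 3 it was -0.33 and did not pass (adjusted p = 0.0932). *Hoxc5*, its neighbour, ran from 192 to 297 in WT and from 168 to 208 in KI (log2 fold change -0.31, SE 0.13, adjusted p = 0.097). *Hoxc6* (log2 fold change -0.08, SE 0.11) and *Hoxc8*, which acts in the brachial spinal cord and ribs (log2 fold change -0.03, SE 0.07), did not pass. *Hoxc8* was the steadiest abundant member, with 566 ± 50.3 normalized counts in WT and 553 ± 25.9 in KI (SD, n = 5). *Hoxc9* had 17.1 to 34.7 in WT and 18.5 to 46.2 in KI (log2 fold change 0.17, SE 0.30).

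In cluster A, *Hoxa6* had 35.0, 42.8, 40.3, 45.6 and 37.1 normalized counts in WT and 51.7, 62.5, 53.8, 42.7 and 64.6 in KI. All KI libraries but replicate 4 lay above the WT range (log2 fold change 0.45, SE 0.16, adjusted p = 0.0492). With 1 library left out in turn its adjusted p ran from 0.0329 to 0.112 and passed only without KI replicate 4, and without WT replicates 1 and 3 it was 0.185. *Hoxa5*, needed for lung development, had a log2 fold change of 0.41 (SE 0.17, adjusted p = 0.0784), and DESeq2 called it higher (adjusted p = 0.0486). *Hoxa7*, a gene expressed in keratinocytes, had 0.30 (SE 0.25) and *Hoxa9*, a blood and trunk gene, 0.03 (SE 0.55). The headward *Hoxa2* (-0.24, SE 0.23), *Hoxa3* (-0.03, SE 0.16) and *Hoxa4* (-0.34, SE 0.24), and the tailward *Hoxa10* (-0.88, SE 0.43), did not pass either. *Hoxa10*, known for uterine patterning, had 30.8 ± 14.2 in WT and 17.0 ± 8.11 in KI (SD, n = 5), with KI replicate 1 lowest.

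Cluster D showed no member past the threshold with edgeR or DESeq2, and 1 at an unadjusted p under 0.05, *Hoxd9*. *Hoxd8* had 539.7, 401, 660, 292 and 347 normalized counts in WT and 572, 619, 277, 515 and 649 in KI, so the libraries of each genotype spread over a more than 2-fold range. *Hoxd3* (log2 fold change 0.30, SE 0.38), *Hoxd4* (0.40, SE 0.31) and *Hoxd8* (0.24, SE 0.26) had positive values. *Hoxd9* (-0.56, SE 0.24, adjusted p = 0.088) and *Hoxd10* (-0.61, SE 0.29, adjusted p = 0.124), genes of the lower trunk and hind limb, had negative ones. Without WT replicates 1 and 3, the edgeR values were 0.82 for *Hoxd3* (SE 0.39), 0.68 for *Hoxd4* (SE 0.34) and 0.60 for *Hoxd8* (SE 0.26). None of them passed (adjusted p of 0.176, 0.204 and 0.141), and *Hoxd9* (-0.17) and *Hoxd10* (-0.55) stayed negative. The *Hoxd3*, *Hoxd4* and *Hoxd8* values of KI replicate 3 were 24.2, 125 and 277 normalized counts, each the lowest of the 10 libraries.

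By paralog number, the members that passed lay between 2 and 8. Those that rose were all of cluster B except *Hoxa6*. Over all tested genes 15.3% were higher and 19.1% lower. Of the 6 tested members of paralogs 1 to 3, 2 rose (*Hoxb2* and *Hoxb3*). Of the 15 members of paralogs 4 to 8, 6 rose and 1 fell, with a median log2 fold change of 0.40. None of the 6 tested members of paralogs 9 to 13 passed with edgeR (2 had an unadjusted p under 0.05, *Hoxb9* and *Hoxd9*, and DESeq2 called *Hoxb9*), with a median of -0.27 and values from -0.88 (*Hoxa10*) to 1.16 (*Hoxb9*). The same paralog number went different ways in different clusters: at number 4, *Hoxb4* rose and *Hoxc4* fell.

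Position along the body was read from ratios of a tailward to a more headward gene of 1 cluster, so that the total amount of Hox transcript weighs less. *Hoxc10*, a gene of the lumbar trunk and hind limb, gave the sharpest separation of libraries. It had 0, 54, 1, 2 and 0 counts in WT replicates 1 to 5 and 5, 50, 3, 19 and 33 in KI replicates 1 to 5. WT replicate 2 and KI replicates 2, 4 and 5 held nearly all of its counts, and WT replicates 1 and 5 had none. As a share of *Hoxc10* plus *Hoxc8* counts, *Hoxc10* made up 7.63% in WT replicate 2 (exact 95% binomial interval 5.78% to 9.83%), 7.40% in KI replicate 2 (5.54% to 9.64%), 4.60% in KI replicate 4 (2.79% to 7.09%) and 7.25% in KI replicate 5 (5.04% to 10.0%). In the other 6 libraries it was at most 0.635%, and the 0 counts of WT replicates 1 and 5 leave exact upper limits of 0.535% and 0.691%. These intervals cover counting error only. Group means did not separate the genotypes, with 9.36 ± 19.2 normalized counts in WT and 24.2 ± 20.5 in KI (SD, n = 5), and without the filter on low counts the adjusted p was 0.451.

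The same libraries stood high for *Hoxb9*. Per 100 counts of *Hoxb8* there were 31.7, 87.8, 52.6, 41.1 and 24.7 counts of *Hoxb9* in WT and 39.3, 90.6, 33.9, 62.3 and 64.8 in KI. WT replicate 2 and KI replicates 2, 4 and 5 held the 4 highest of these ratios, as for *Hoxc10*, and the genotypes overlapped over most of their range. *Hoxa9* per 100 counts of *Hoxa7* was 29.0, 55.5, 50.8, 16.5 and 18.5 in WT and 13.2, 38.8, 25.0, 36.0 and 29.5 in KI. Here WT replicate 3 joined the high libraries, KI replicate 5 lay close to WT replicate 1, and KI replicate 1 was lowest. *Hoxc9* per 100 counts of *Hoxc8* was 5.09, 6.57, 2.84, 3.77 and 4.14 in WT and 4.21, 8.15, 4.16, 5.84 and 3.32 in KI. It rests on 14 to 51 *Hoxc9* counts per library. Replicate 2 of each genotype and KI replicate 4 were highest there, while KI replicate 5 lay above WT replicate 3 only. *Hoxd9* per 100 counts of *Hoxd8* ran differently, with 30.8 ± 7.41 in WT and 18.8 ± 6.31 in KI (SD, n = 5) and WT replicate 2 the lowest of its group at 19.8, so not every tailward gene rose in the same libraries.

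**Figure D3:**
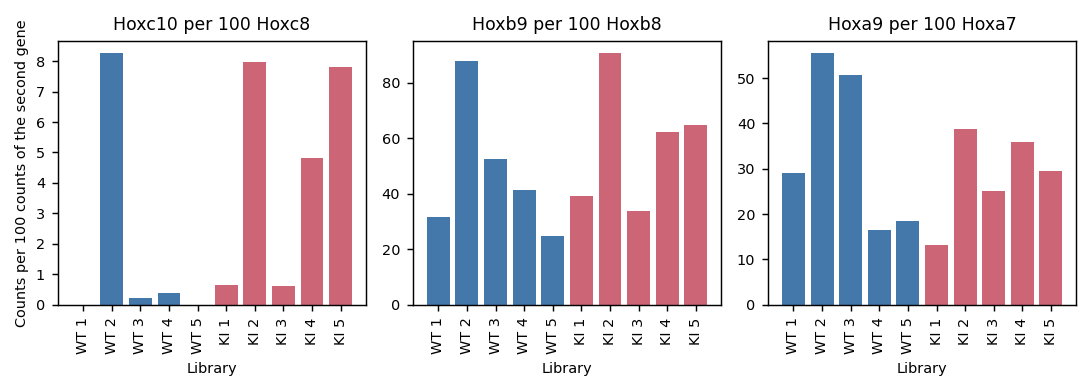
Counts of a tailward gene per 100 counts of a more headward gene of the same cluster in each library, for *Hoxc10* on *Hoxc8*, *Hoxb9* on *Hoxb8* and *Hoxa9* on *Hoxa7* (bars, WT in blue and KI in red, no error because each bar is 1 library). WT replicate 2 and KI replicates 2, 4 and 5 are high in the left and middle panels, and neither genotype is uniformly high or low.

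Over all tested members, a position index was taken as the mean log2(CPM + 1) of the 6 members of paralogs 9 and 10 less that of the 21 members of paralogs 1 to 8. It was -1.33, -0.91, -1.11, -1.40 and -1.52 in WT replicates 1 to 5 and -1.74, -1.16, -1.51, -1.28 and -1.54 in KI replicates 1 to 5. The groups overlapped, and the KI mean was lower by 0.19, less than the SD within WT (0.24) or KI (0.23). The term of paralogs 9 and 10 averaged 1.66 in WT and 1.67 in KI. That of paralogs 1 to 8 averaged 2.92 and 3.12. The latter holds *Hoxb2* to *Hoxb8*, so the index also carries the genotype difference of cluster B. The index is not free of a scaling shared by all Hox genes of a library. The 1 added to each CPM damps such a scaling more in genes with few counts. Without WT replicate 2 and KI replicate 2 together, the library of each genotype with the most *Hoxb9* and *Hoxc10* counts, the difference in the index was -0.18. Cluster B still had a median log2 fold change of 0.57 in their absence, with 3 members higher (*Hoxb4* and *Hoxb6* at adjusted p of 0.0458 and 0.0489, and *Hoxb9* at 0.0308), where 6.55% of all genes were.

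Transcripts of dermal fibroblast genes were lower in KI skin. Of 15 dermal fibroblast genes, 12 were lower in KI skin and none was higher, with a median log2 fold change of -0.78. *Dcn*, which encodes the matrix proteoglycan decorin, fell by 0.58 on the log2 scale (adjusted p = 0.0232), whereas the most abundant collagens did not pass (*Col1a1* -0.21, *Col1a2* -0.15, *Col3a1* -0.59). The score of the list was 7.73 to 8.57 in WT and 7.03 to 7.66 in KI, without overlap. The Hox score, the mean over the 27 tested members, was 2.54 to 2.70 in WT and 2.61 to 3.04 in KI. Hox score less dermal fibroblast score was -5.91, -5.38, -5.77, -5.19 and -5.42 in WT and -4.30, -4.37, -4.70, -4.83 and -4.79 in KI. All KI libraries were higher, by 0.94 on average. When libraries were scaled so that the dermal fibroblast list was level, 19 of 27 members were higher and none lower, but so were 69.2% of all genes, and the median of all genes moved to 0.78. *Hoxa10* was then the only member with a negative fold change.

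Genes of other tissue layers moved with the genotype too, where 19.1% of all tested genes were lower and 15.3% higher. Skeletal muscle genes were lower in 11 of 12 cases (median -1.51, with *Myh4* at -1.88 and *Acta1* at -1.52), adipocyte genes in 8 of 10 (median -1.07), endothelial genes in 7 of 8 (median -0.91), macrophage genes in 8 of 9 (median -1.35) and Schwann cell genes in 2 of 5 (median -0.43). Basal keratinocyte genes were lower in 3 of 8 (median -0.21), and *Krt5* (-0.07) and *Krt14* (-0.14), the keratins of the basal layer, did not pass. Of 10 hair shaft keratins 2 were higher (median 2.29), and of 7 inner root sheath genes none passed (median 1.36). The score of none of these lists was near 0 in any library, the lowest being the hair shaft score of 2.44 in WT replicate 3.

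Cluster B and the hair shaft score set the same WT libraries apart. The cluster B score was 3.29, 3.45, 2.90, 3.48 and 3.52 in WT and 3.81, 4.28, 3.94, 3.73 and 3.98 in KI. WT replicates 3 and 1, with the least hair shaft keratin, were lowest in cluster B, and every KI library was above every WT library in both scores. These WT libraries also had the 2 highest skeletal muscle, adipocyte and endothelial scores. Among KI libraries, replicate 3 was highest in the hair shaft score and replicate 2 in cluster B. *Hoxc4*, *Hoxc5*, *Hoxc6* and *Hoxc8* together were highest in WT replicates 3 and 1 (3.93 and 3.84), which had the 2 highest dermal fibroblast scores. With the hair shaft score as a covariate no member of any cluster passed, and of all genes 0.174% were lower and 0.0193% higher. Over all clusters, 4 members were higher at an unadjusted p under 0.05. The largest fold changes in that fit were of cluster D, *Hoxd3* (1.20, SE 0.40), *Hoxd4* (1.01, SE 0.36) and *Hoxd8* (0.90, SE 0.25). The cluster B median was then 0.28, and it was 0.34 with the dermal score and 0.40 with the muscle score as covariate, again with no member past the threshold, where at most 0.0129% of all genes were past it in either direction. The part of hair, dermis and muscle in the genotype difference of cluster B was not tested further.

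**Figure D4:**
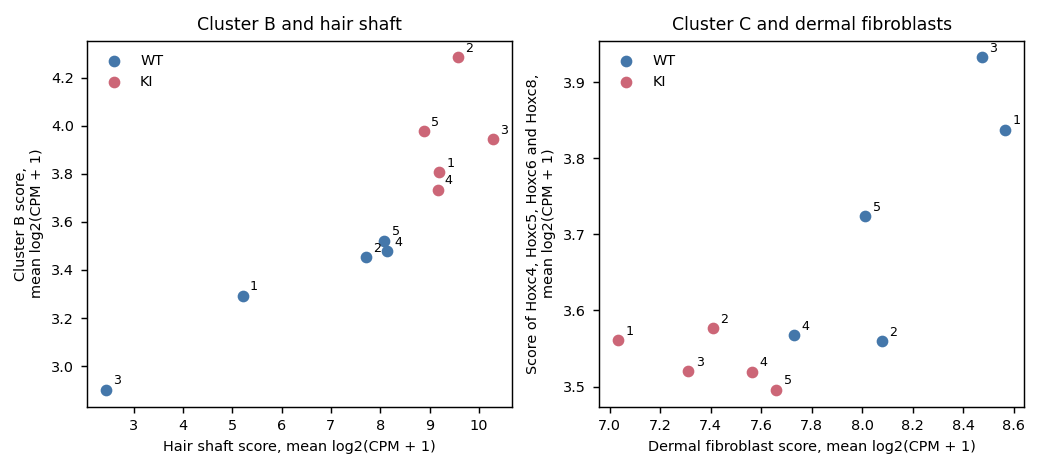
Left, score of the 8 tested cluster B members against the hair shaft score, and right, score of *Hoxc4*, *Hoxc5*, *Hoxc6* and *Hoxc8* against the dermal fibroblast score, each as mean log2(CPM + 1), with 1 point per library numbered by replicate (WT blue, KI red). WT replicates 1 and 3 sit lowest in cluster B and highest in cluster C, and KI libraries sit above all WT libraries in cluster B.

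The contrast between clusters was therefore also taken within each library. Cluster B score less that of *Hoxc4*, *Hoxc5*, *Hoxc6* and *Hoxc8*, a readout chosen after the values were seen, was -0.54, -0.11, -1.03, -0.09 and -0.20 in WT and 0.25, 0.71, 0.42, 0.22 and 0.48 in KI. The genotypes did not overlap, which the choice of genes by their fold changes made likely. *Hoxc9*, the tested cluster C member with a positive fold change (0.17), is not in the readout. Since both terms come from the same library, depth and the scaling of the library bear little on this difference.

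**Figure D5:**
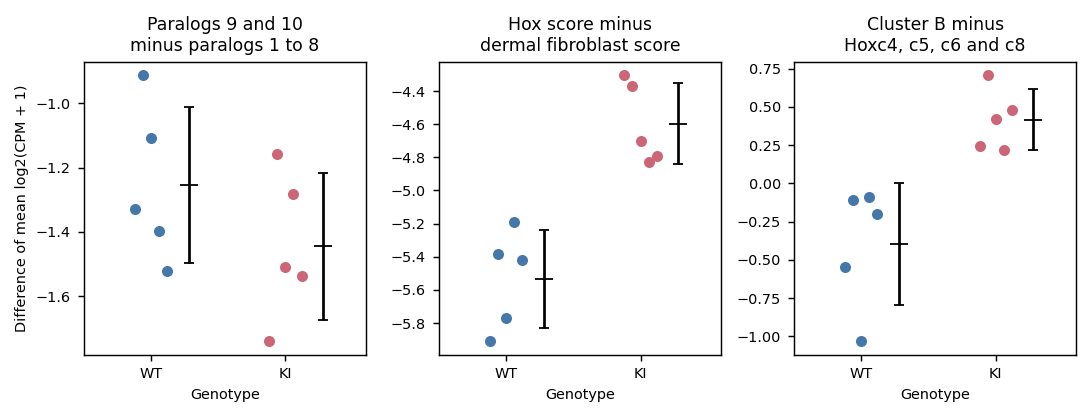
Differences of mean log2(CPM + 1) in each library (points, WT blue and KI red) with the group mean and SD beside them (n = 5 each): paralogs 9 and 10 less paralogs 1 to 8, the Hox score less the dermal fibroblast score, and cluster B less *Hoxc4* to *Hoxc8*. The genotypes overlap in the first panel and are apart in the other panels, the last of which was chosen after the values were seen.

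Promoters are shown for *Hoxb4* and *Hoxb8*, which rose, and for *Hoxc4*, which fell. Counts are per gene, so which start was in use was not measured. The *Hoxb8* and *Hoxc4* windows lie within the annotated gene and not at its outer end. Each covers 250 bases before to 50 bases after a RefSeq start on GRCm38.p6, and capitals mark the homeodomain core TAAT on either strand. They lie at chr11:96318017-96318316, chr11:96281655-96281954 and chr15:103034145-103034444, all on the plus strand.
Hoxb4: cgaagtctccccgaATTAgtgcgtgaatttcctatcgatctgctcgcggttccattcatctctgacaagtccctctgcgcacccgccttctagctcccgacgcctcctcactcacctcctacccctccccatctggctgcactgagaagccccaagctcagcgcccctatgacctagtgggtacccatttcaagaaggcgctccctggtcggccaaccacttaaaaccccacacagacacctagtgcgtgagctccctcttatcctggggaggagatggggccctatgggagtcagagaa
Hoxb8: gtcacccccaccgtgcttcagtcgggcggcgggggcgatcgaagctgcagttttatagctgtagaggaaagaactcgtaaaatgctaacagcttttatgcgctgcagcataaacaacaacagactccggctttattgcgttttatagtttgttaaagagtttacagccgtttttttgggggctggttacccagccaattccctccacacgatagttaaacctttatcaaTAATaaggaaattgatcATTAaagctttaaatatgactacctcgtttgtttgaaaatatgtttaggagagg
Hoxc4: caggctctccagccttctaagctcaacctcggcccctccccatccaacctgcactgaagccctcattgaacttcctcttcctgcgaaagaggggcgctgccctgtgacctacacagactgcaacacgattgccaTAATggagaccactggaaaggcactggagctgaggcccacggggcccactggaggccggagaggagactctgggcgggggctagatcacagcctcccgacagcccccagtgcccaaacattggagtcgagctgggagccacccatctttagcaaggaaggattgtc
RefSeq promoters were matched for 22 of 38 members, 24 windows in all. TAAT occurred in 19 of the 24 and in 58.03% of 32851 promoters of the same length, *Hoxb8* with 2 matches and *Hoxb4* and *Hoxc4* with 1 each. A Hox-Pbx element, TGATTNAT, was found at *Hoxa2* and *Hoxd11* (3.22% of all promoters), and an AP-1 element, TGANTCA, at *Hoxd11* alone (7.81% of all). The 3 printed windows held neither.

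The clusters also carry noncoding genes. Of 14 with counts listed, 4 passed the filter. *Hoxb5os*, the antisense gene beside *Hoxb5*, rose with a log2 fold change of 1.42 (SE 0.38, adjusted p = 0.020), from 54.9 ± 31.0 to 148 ± 41.1 normalized counts (SD, n = 5). *Hotairm1* (log2 fold change -0.43), *Hoxd3os1* (0.10) and *Mir196a-1* (0.90, SE 0.50, adjusted p = 0.178) did not pass. Counts at *Mir196a-1*, which lies between *Hoxb13* and *Hoxb9*, were 13, 65, 8, 28 and 19 in WT and 31, 95, 23, 30 and 43 in KI, again highest in replicate 2 of each genotype. Counts at this locus measure the host transcript, not the mature miRNA. *Hotair* had 1 count and *Hottip* 0 over the 10 libraries.

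The miRNAs of the clusters are shown because miR-196 is known to repress Hox mRNAs and because cluster B encodes 1 miRNA of each family. Those of the miR-196 family share 1 seed and those of the miR-10 family another, given in capitals (bases 2 to 8, RefSeq).
miR-196a-5p: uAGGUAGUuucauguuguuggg
miR-196b-5p: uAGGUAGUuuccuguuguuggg
miR-10a-5p: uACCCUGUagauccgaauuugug
miR-10b-5p: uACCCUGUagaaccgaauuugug
The best match to miR-196a-5p past a stop codon of any member was in *Hoxb8*, a long-known target, at chr11:96284888-96284909 on the plus strand, 418 bases past the stop. Capitals mark its 21 paired bases and the lower-case base a G-U pair.
Hoxb8 site: CCCAACAACAUGAAACUgCCUA
The next best member had 15 paired bases, and only *Hoxa7* matched the whole seed in its best window.

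Partners and regulators of Hox genes were taken from lists, beside 19.1% of all tested genes that were lower and 15.3% that were higher. Of 9 TALE cofactors, which bind DNA with Hox proteins, 4 fell, among them *Pknox2* (-1.68), *Meis3* (-0.79) and *Meis2* (-0.64), and *Pbx2* rose by 0.20 on the log2 scale. Of 17 Trithorax and Polycomb genes and histone demethylases, which hold Hox clusters on or off, 6 rose and none fell, *Kmt2b* (0.22) and *Kdm6b* (0.41) among them, while *Kmt2a* (0.08) and *Ezh1* (-0.09) did not pass. These named genes are those of the list with the most counts. The 6 that rose also included Polycomb genes, which hold clusters off. Of 13 upstream genes of the retinoic acid and Cdx pathways 8 were tested. *Cyp26b1*, which degrades retinoic acid, fell by 0.74 on the log2 scale, and *Aldh1a1*, which makes it, fell from 1283 ± 599.6 to 639 ± 219.5 normalized counts (SD, n = 5), while the receptor *Rarg* rose by 0.30, and *Cdx2* and *Cdx4* had 0 counts.

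Other regional genes of skin and limb gave a mixed account. Of 21, 14 were tested, where 19.1% of all tested genes fell and 15.3% rose. Of the 14, 2 rose and 6 fell. Among these, *Tbx15*, which sets the boundary between back and belly coat colour, fell by 1.02 on the log2 scale (adjusted p = 0.00674), *En1* by 0.80, *Shox2* by 0.85, *Tbx18* by 0.64 and *Emx2* by 0.76. *Msx1* and *Msx2*, homeobox genes that hair follicles use, rose by 0.86 and 1.48. The fibroblast list moved the same way as the 6 that fell and the hair shaft list as the 2 that rose, and their part in these changes was not tested.

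Shared sequence limits some of these counts. In the GENCODE M21 annotation 16 of 38 members share exonic bases with another gene, 10 of them with one on the opposite strand, and whether the authors counted by strand is not given in the sources used here. *Hoxb3* shares 52.9% of its exonic bases with the antisense *Hoxb3os* and *Hoxb2* 27.3%, so part of their counts may come from it, while *Hoxb5* shares 3.6% with *Hoxb5os*, and *Hoxb4*, *Hoxb6*, *Hoxb7* and *Hoxb8* share none. *Hoxd3* and *Hoxd4* overlap each other.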

How the data were processed

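Full-thickness skin of the treated back, free of tumor, gave 1 RNA-seq library from each of 5 WT and 5 KI mice. The authors filtered reads by mean quality, aligned them with STAR 2.5.2b to mm10, counted per gene with featureCounts (Subread 1.5.0-p1) and deposited raw counts without normalization. Strand setting and handling of multiply matching reads are not given in the sources used here. The gene length the authors deposited beside the counts served for RPKM. Rows without a gene name (2, 7.38e-05% of counts) were left out.

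From the counts, edgeR 4.0.16 (R 4.3.3) computed TMM factors, filtered with filterByExpr, fitted the robust quasi-likelihood model with genotype as the only term, and adjusted p by Benjamini-Hochberg over 15543 genes. Passing meant an adjusted p under 0.05. Scores are means of log2(CPM + 1). Members and gene lists were chosen with earlier results of these data known. Tested members are named, together with up to 4 genes of the most counts of each other list and cofactor, upstream and regional genes that passed. Values of some of these genes are not reported here, but the genes remain in the fits, counts and scores. The script was tested on simulated data. Alternatives were DESeq2 1.42.0, limma-voom (limma 3.58.1), other scalings, filters, covariates and pseudocounts, a replicate block, and left-out libraries. Leaving out WT replicate 2 and KI replicate 2 together was chosen after seeing the data, as was the readout of cluster B less cluster C. Positions are GRCm38.p6 and GENCODE M21. The p-values measure the spread between mice of 1 experiment. At 19595035 to 36419573 counts per library, 11 members did not pass the filter on low counts.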

Additional observations from a re-analysis of the deposited data

Results flagged for a closer look

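*Hoxb9* in WT skin had 1 library set apart from the rest of its group. WT replicate 2 stood at 296 normalized counts while the other 4 ran from 85.4 to 147, a gap that takes up a share of the group's range above the limit for 5 libraries (0.71). Of 58 groups of libraries examined 1 was set apart in this way, where chance gives 2.9.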

How the results depend on the processing

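With 8 members higher, 1 lower and a median log2 fold change of 0.24 as reported, upper-quartile scaling and no filter each gave 5 higher (12.6% and 9.77% of all genes), and DESeq2, voom, DESeq2's size factors and a minimum of 10 counts gave 10, 8, 8 and 6 (19.7%, 15.8%, 15.7% and 15.1%). Scaling to the dermal fibroblast list gave 19 higher (69.2% of all genes), 0 lower and a median of 1.04, where the median of all genes was 0.78. With the dermal, hair shaft or muscle score, 0 were higher and 0 lower, where at most 0.174% of all genes were either. With a Y-linked term genotype rests on KI replicate 1 alone, so members passing were not counted. The replicate block gave 5 higher (5.72% of all genes) and 0 lower, but the replicate numbers do not pair the mice: deviations of same-numbered libraries correlated at -0.18 to 0.085 and 0 of 5 libraries were closest to their own number. Without WT replicates 1 and 3, 4 were higher and 0 lower, and without WT replicate 2 and KI replicate 2, 3 were higher. With each library left out in turn, 3 to 7 were higher, 1 to 2 lower (2 without WT replicate 2) and the median ran from 0.091 (without KI replicate 2) to 0.37 (without KI replicate 3). Counts higher were 5 without WT replicate 1 or KI replicate 1, 4 without KI replicate 3 and 3 without KI replicate 2. The position index (-0.30 to -0.017) and the Hox score less the dermal score (0.73 to 1.02) kept their direction under every alternative run for them. The cause of these shifts was not tested, except that the left-out fits hold fewer mice.

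Fold changes that changed sign, given here for the members reported singly, were all of members that had not passed, except *Hoxc4*. Scaling to the dermal list, which moved the median of all genes to 0.78, turned *Hoxa2* (0.56), *Hoxa3* (0.77), *Hoxa4* (0.49), *Hoxc4* (0.34), *Hoxc5* (0.50), *Hoxc6* (0.74), *Hoxc8* (0.77), *Hoxd9* (0.27) and *Hoxd10* (0.24). The dermal covariate turned *Hoxa2* (0.20), *Hoxa3* (0.21), *Hoxa4* (0.058), *Hoxa10* (0.47), *Hoxc5* (0.094), *Hoxc8* (0.12) and *Hoxd9* (0.099). The hair covariate turned *Hoxa2* (0.16), *Hoxa3* (0.12), *Hoxa4* (0.088), *Hoxc6* (0.058), *Hoxc8* (0.097), *Hoxc9* (-0.0091) and *Hoxd9* (0.044). The muscle covariate turned *Hoxa2* (0.22), *Hoxa3* (0.0039), *Hoxa4* (0.27), *Hoxa7* (-0.034), *Hoxa9* (-0.34), *Hoxc5* (0.063), *Hoxc6* (0.043), *Hoxc8* (0.093), *Hoxc9* (-0.26) and *Hoxd9* (0.053). The Y-linked term turned *Hoxa9* (-1.40), *Hoxc6* (0.15), *Hoxc8* (0.053) and *Hoxc9* (-0.042). Leaving out WT replicates 1 and 3 turned *Hoxa3* (0.048), *Hoxc6* (0.029) and *Hoxc8* (0.058). With 1 or 2 libraries left out, those that turned ran for *Hoxa3* from -0.14 to 0.048 (at most 0.031 with 1 left out), *Hoxa9* from -0.39 to 0.49, *Hoxc6* from -0.15 to 0.029 (below 0 with 1 left out), *Hoxc8* from -0.064 to 0.058 (at most 0.012 with 1 left out) and *Hoxc9* from -0.086 to 0.31. Low counts limit the members past paralog 9 most.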
